A study of Mus musculus with 64 samples.

Results

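The genes described here are 34 mouse genes by which microglia, the resident macrophages of the brain, and Kupffer cells, the resident macrophages of the liver, are recognised. They were listed by symbol, and each of the 34 matched 1 gene ID of the 55414 in the acute count table and of the 55573 in the continuous one. By role they fell into 6 groups, namely 10 homeostatic microglia genes (Cx3cr1, P2ry12, P2ry13, Tmem119, Siglech, Gpr34, Fcrls, Selplg, Nrros and Lag3), 5 genes for the growth factor receptor Csf1r and for immune receptors and their adaptors (Trem2, Tyrobp, Fcer1g and Fcgr3), the 3 chains of complement C1q (C1qa, C1qb and C1qc), 4 integrin and innate sensor genes (Itgam, Itgad, Tlr2 and Ly86), 6 lysosomal and general macrophage genes (Aif1, Cd68, Ctss, Laptm5, Mpeg1 and Adgre1) and 6 Kupffer and tissue macrophage genes (Clec4f, Vsig4, Marco, Cd5l, Timd4 and Cd163).

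Microglia and Kupffer cells are long-lived macrophages that settle in their organs during embryonic development and need signalling through Csf1r, the receptor for Csf1 and Il34, to survive. Microglia survey brain tissue through receptors such as P2ry12, which senses nucleotides released by cells, and Cx3cr1, which senses a chemokine of neurons, and they make most of the C1q of the brain, the protein that starts the classical complement cascade. Kupffer cells line the liver sinusoids and clear particles from the blood through receptors such as Clec4f, Vsig4 and Timd4. Glucocorticoids, of which corticosterone (CORT) is the main one in mice, act on macrophages through the glucocorticoid receptor, which represses many inflammatory genes.

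RNA was sequenced from the left hippocampus and the liver of adult male F1 hybrid mice of 10 to 18 weeks, bred from C57BL/6J fathers and 129sv mothers that carried the Ube3a deletion on their paternal allele. Angelman syndrome (AS) mice inherited a deletion of Ube3a exon 5 from the mother (Ube3a m-/p+), and the wild-type (WT) mice were their littermates. Since only neurons silence the paternal allele, the microglia and Kupffer cells of AS mice kept a working copy, and all groups shared the hybrid background. In the acute experiment mice received a subcutaneous injection of 3 mg/kg CORT or of vehicle (5% ethanol in PBS) and the hippocampus was taken 3 h later, with 6 mice in each of the 4 groups. In the continuous experiment a subcutaneous pellet of 20 mg CORT or a cholesterol vehicle pellet was carried for 5 days, with 5 mice per group, and the hippocampus and the liver were taken from the same mice. Of the continuous hippocampal libraries, 1 AS vehicle and 1 WT vehicle library, left out by the study as technical outliers, were left out here too, which left 18.

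Counts on genes per library were 19049461 to 21052967 (acute hippocampus), 19112929 to 21783009 (continuous hippocampus) and 18612550 to 20868924 (liver), so that 3 counts, taken as the limit that a count of 0 allows, corresponded to at most 0.16 CPM (counts scaled to a common library total). Levels are CPM scaled by the trimmed mean of M-values (TMM), and intervals and limits cover counting error only. A gene passed the test when its adjusted p (edgeR quasi-likelihood test, Benjamini-Hochberg adjustment over all genes tested) was under 0.05. Fkbp5, a direct target of the glucocorticoid receptor, rose with CORT in every comparison, by 0.82 on the log2 scale in WT and 1.10 in AS (acute hippocampus), 0.58 and 1.05 (continuous hippocampus) and 3.43 and 4.14 (liver). Between AS and WT vehicle mice, Ube3a counts had a log2 difference of -0.06 in the acute hippocampus and were lower in AS liver by 0.55 on the log2 scale. A transcript lacking 1 exon can still be counted in either tissue, and why the tissues differed was not tested. The neuron genes Snap25, Syt1 and Rbfox3 summed to 3050 to 4939 CPM in hippocampal libraries and the hepatocyte genes Alb, Apoa1 and Fgb to 81390 to 126300 CPM in liver libraries, each high in its own organ.

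Per kilobase of exon, the genes with the highest median level in the continuous hippocampus were Ctss, the lysosomal protease cathepsin S, at 34.9 CPM per kb, C1qa at 31.9, C1qb at 29.9, Csf1r at 16.7 and Tyrobp, an adaptor that passes on signals of Trem2 and other receptors, at 15.5. In the acute hippocampus the order at the top was C1qa at 37.4 CPM per kb, C1qb at 32.5, Ctss at 25.2 and Csf1r at 17.7. In the liver the highest medians were those of Cd5l, a protein that macrophages secrete into the blood, at 18.1 CPM per kb, C1qb at 17.5, C1qa at 17.5 and Clec4f, a galactose-binding lectin of Kupffer cells, at 16.1. These medians are over the vehicle and CORT libraries together, and the order turned between groups. In WT vehicle livers the mean of Cd5l was 27.0 CPM per kb and that of C1qa 20.2, whereas in WT CORT livers they were 11.2 and 14.1, and in the continuous hippocampus Ctss was above C1qa in WT CORT mice (32.0 and 30.4) and below it in AS CORT mice (32.8 and 33.9). At the low end of the hippocampus were Tlr2, a sensor of bacterial lipoproteins, at 0.339 CPM per kb in the continuous experiment, the haemoglobin scavenger receptor Cd163 at 0.182 and the integrin chain Itgad at 0.129, while the 5 other Kupffer genes had a median of 0.

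The sequences just upstream of the RefSeq start of 6 of these genes are given because their levels or CORT responses set hippocampus and liver apart in the results that follow. Promoter windows (RefSeq, GRCm38.p6, from 250 bases before the start to 50 after) were at hand for 25 of the 34 genes, with 2 overlapping windows for Fcgr3 and so 26 in all. The letters GAGGAA, the core that the macrophage factor PU.1 binds, were searched on both strands, as were AGAACA, one arm of the glucocorticoid receptor element, and GAGGAAGT, a longer PU.1 core that contains the first. GAGGAA was found in 15 of the 26 windows (57.7%), against 23.3% of all 32851 windows of that length, and AGAACA in 10 of 26 (38.5%) against 16.1%. GAGGAAGT was found in 1 of the 26, that of C1qc (3.85% against 2.44%). A match describes letters and not a bound site. In the GENCODE gene models Fcrls, C1qc and Clec4f reach into the bases printed here, which in Fcrls and Clec4f puts the capitals inside the gene. The 250 bases before the start are printed 5′ to 3′ on the strand of the gene, with capitals for the GAGGAA core (read as TTCCTC where it lies on the opposite strand), and for Clec4f, whose window held no GAGGAA, for AGAACA. They are Fcrls, an Fc receptor-like gene of microglia (chr3:87263525-87263774, minus strand), Trem2, a lipid-sensing receptor (chr17:48346151-48346400, plus strand), C1qb (chr4:136886201-136886450, minus strand), C1qc (chr4:136892915-136893164, minus strand), Clec4f (chr6:83656117-83656366, minus strand) and Cd5l (chr3:87357631-87357880, plus strand).
Fcrls: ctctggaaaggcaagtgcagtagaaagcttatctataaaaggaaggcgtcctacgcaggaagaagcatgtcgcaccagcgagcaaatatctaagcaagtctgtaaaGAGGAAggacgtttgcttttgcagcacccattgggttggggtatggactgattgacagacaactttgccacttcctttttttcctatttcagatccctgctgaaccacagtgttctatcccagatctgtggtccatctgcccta
Trem2: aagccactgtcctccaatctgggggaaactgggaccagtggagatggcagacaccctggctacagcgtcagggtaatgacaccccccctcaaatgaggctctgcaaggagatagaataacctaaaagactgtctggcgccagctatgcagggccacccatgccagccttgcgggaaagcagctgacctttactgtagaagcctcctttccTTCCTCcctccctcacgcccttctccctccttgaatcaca
C1qb: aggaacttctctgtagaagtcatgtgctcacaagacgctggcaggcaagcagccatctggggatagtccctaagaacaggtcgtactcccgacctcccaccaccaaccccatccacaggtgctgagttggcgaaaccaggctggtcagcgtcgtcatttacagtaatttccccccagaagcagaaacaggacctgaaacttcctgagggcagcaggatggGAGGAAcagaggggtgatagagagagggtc
C1qc: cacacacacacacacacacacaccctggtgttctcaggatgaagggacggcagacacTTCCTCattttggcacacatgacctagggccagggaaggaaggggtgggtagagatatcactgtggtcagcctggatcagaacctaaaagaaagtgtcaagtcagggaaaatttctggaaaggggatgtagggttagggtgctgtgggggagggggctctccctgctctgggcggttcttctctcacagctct
Clec4f: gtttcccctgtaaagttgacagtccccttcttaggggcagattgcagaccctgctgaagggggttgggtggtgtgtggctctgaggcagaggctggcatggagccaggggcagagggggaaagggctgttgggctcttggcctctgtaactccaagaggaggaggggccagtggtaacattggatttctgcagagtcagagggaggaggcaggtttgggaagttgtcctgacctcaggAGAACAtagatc
Cd5l: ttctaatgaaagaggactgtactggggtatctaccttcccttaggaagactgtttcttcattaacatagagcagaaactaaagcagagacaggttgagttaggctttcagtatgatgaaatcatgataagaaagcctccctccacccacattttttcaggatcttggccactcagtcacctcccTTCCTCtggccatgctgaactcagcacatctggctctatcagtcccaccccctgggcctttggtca
The capitals began 144 bases before the start in Fcrls, 40 in Trem2, 30 in C1qb, 193 in C1qc, 12 in Clec4f and 66 in Cd5l, so the core lay at no fixed distance.

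After 5 days of CORT, 6 of the 10 homeostatic microglia genes of the hippocampus were lower in WT and 7 of 10 in AS mice, while the C1q chains and Csf1r did not pass the test. In WT mice 12 members were lower and 1 was higher of the 29 that passed the filter on low counts, and in AS mice 11 were lower and 1 was higher. The higher one was Itgad in each, which passed the filter only through the AS CORT group, where it was high. The 5 that did not pass were Kupffer genes, namely Clec4f, Vsig4, Marco, Cd5l and Timd4. Of all genes tested, 2.11% were lower and 0.803% higher with CORT in WT, and 1.75% lower and 2.03% higher in AS. The median log2 fold change of the 29 was -0.273 in WT and -0.321 in AS, against 0.00338 and -0.00267 for all genes tested. In whole tissue, fewer microglia and less RNA per microglial cell cannot be told apart.

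Lag3 and Fcrls fell in both genotypes. Lag3, an immune checkpoint receptor that microglia also express, was at 4.11, 4.94, 5.01 and 5.28 CPM in WT vehicle mice and at 1.43, 1.52, 1.53, 1.63 and 3.29 in WT CORT mice. In AS mice it was at 5.18, 5.36, 5.51 and 5.82 CPM with vehicle and at 1.6, 1.77, 1.85, 1.94 and 1.99 with CORT. No CORT library reached any vehicle library of its genotype, and the fall was 1.36 ± 0.186 (SE) on the log2 scale in WT (adjusted p = 0.00027) and 1.58 ± 0.185 in AS (adjusted p = 3.27e-05). Fcrls was at 10.9, 12, 12.3 and 12.4 CPM in WT vehicle, at 5.13, 6.44, 6.89, 6.92 and 7.83 in WT CORT, at 10.4, 11.2, 11.2 and 11.5 in AS vehicle and at 4.13, 5.1, 5.38, 5.78 and 6.79 in AS CORT mice. Again the groups were apart in each genotype, with a fall of 0.84 ± 0.118 on the log2 scale in WT (adjusted p = 0.00034) and of 1.03 ± 0.12 in AS (adjusted p = 3.09e-05).

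P2ry12 and its neighbour P2ry13 were lower in both genotypes. P2ry12 was at 33.2, 37, 37.7 and 40.1 CPM in WT vehicle and at 21.8, 23, 23.5, 27.6 and 30.2 in WT CORT mice, a fall of 0.55 ± 0.0888 on the log2 scale (adjusted p = 0.00129). In AS mice it was at 32, 33.7, 34.5 and 35.7 CPM with vehicle and at 21.1, 21.5, 22.4, 24.1 and 26.6 with CORT, a fall of 0.56 ± 0.0893 (adjusted p = 0.000935). P2ry13, which lies on the same chromosome and senses ADP as P2ry12 does, fell by 0.71 in WT and 0.42 in AS (adjusted p = 0.000442 and 0.0226). Gpr34, whose gene lies on the X chromosome and which is a receptor for lysophosphatidylserine, fell by 0.57 and 0.52 (adjusted p = 0.0187 and 0.0269). The AS calls of P2ry13 and Gpr34 rested on the 18 libraries used, as did those of Siglech and Itgam in AS. With all 20 hippocampal libraries, 13 members were called in WT and 8 in AS, where P2ry13, Gpr34, Siglech and Itgam stood at -0.38, -0.47, -0.31 and -0.58 (adjusted p = 0.0621, 0.0703, 0.0919 and 0.0693). Each of these calls in AS was also lost without AS vehicle replicate 11, and all 4 without at least 1 further AS library. The WT call of Gpr34 was lost without WT CORT replicate 20 or WT vehicle replicate 1. Cx3cr1, the fractalkine receptor, was at 63.9, 64.6, 66 and 70.8 CPM in WT vehicle and at 50.4, 51.2, 52.2, 54.3 and 57.6 in WT CORT mice, and at 55.6, 61.6, 62.7 and 65.6 against 44.2, 46.6, 48.1, 49.4 and 52.8 in AS mice. Its fall was smaller, at 0.32 ± 0.058 in WT (adjusted p = 0.00351) and 0.35 ± 0.0582 in AS (adjusted p = 0.00133), yet the groups did not overlap. Siglech, a sialic acid-binding lectin, passed the test in AS mice, with a fall of 0.34 (adjusted p = 0.0219), and had a log2 fold change of -0.25 in WT (adjusted p = 0.128). Tmem119, a membrane protein used to mark microglia, Selplg, a selectin ligand, and Nrros, which holds latent TGF-beta on the microglial surface, did not pass in either genotype, with log2 fold changes of -0.12, -0.02 and 0.18 in WT and of -0.15, 0.04 and 0.39 in AS.

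Of the receptors and adaptors, Trem2 alone passed. Trem2 was at 9.56, 11.1, 11.7 and 12.3 CPM in WT vehicle and at 5.83, 6.32, 6.54, 7.54 and 8.53 in WT CORT mice, a fall of 0.68 ± 0.109 on the log2 scale (adjusted p = 0.0012). In AS mice it was at 10, 10.3, 10.7 and 12.1 CPM with vehicle and at 6.79, 6.86, 7.42, 7.77 and 8.41 with CORT, a fall of 0.53 ± 0.108 (adjusted p = 0.00703). Its adaptor Tyrobp had log2 fold changes of -0.12 ± 0.0944 in WT and -0.11 ± 0.0937 in AS, which did not pass (adjusted p = 0.602 and 0.654). Csf1r ranged from 97.3 to 107 CPM in WT vehicle and from 88.7 to 97.4 in WT CORT mice, with log2 fold changes of -0.13 ± 0.0504 in WT and -0.11 ± 0.0504 in AS (adjusted p = 0.19 and 0.324). The Fc receptor gene Fcgr3 and the Fc receptor gamma chain Fcer1g did not pass either, at 0.26 and -0.31 in WT and 0.27 and -0.20 in AS.

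None of the C1q chains passed the test. C1qb was at 30.3, 30.6, 32.1 and 35.8 CPM in WT vehicle and at 30.6, 32, 32.1, 32.9 and 35.4 in WT CORT mice, and at 28.5, 30.1, 33.3 and 35.8 in AS vehicle and 31.2, 32.9, 34.9, 35.8 and 36.5 in AS CORT mice. The groups overlapped in both genotypes, with log2 fold changes of 0.02 ± 0.0709 in WT and 0.10 ± 0.0708 in AS (adjusted p = 0.95 and 0.574). C1qa had log2 fold changes of -0.09 ± 0.0685 in WT and 0.08 ± 0.0684 in AS, and C1qc of 0.02 ± 0.0806 and 0.07 ± 0.0805.

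Of the integrin genes, Itgam was lower in both genotypes. Itgam, the alpha chain of complement receptor 3, ranged from 3.58 to 4.09 CPM in WT vehicle and from 1.72 to 2.47 in WT CORT mice, and from 2.69 to 3.95 and 1.76 to 2.49 in AS mice, a fall of 0.89 ± 0.152 in WT and 0.65 ± 0.154 in AS (adjusted p = 0.00217 and 0.0198). Most exon bases of Itgam are shared on the same strand with the annotated gene Gm49368, so that its counts may not hold all of its reads. Itgad, its neighbour on chromosome 7, was at 0.184, 0.211, 0.226 and 0.317 CPM in WT vehicle and at 0.559, 0.602, 0.83, 1.11 and 1.53 in WT CORT mice, and at 0.183, 0.232, 0.458 and 0.5 in AS vehicle and 0.898, 0.974, 1.67, 2.07 and 2.18 in AS CORT mice. Its log2 fold change was 1.95 ± 0.432 in WT and 2.16 ± 0.377 in AS (adjusted p = 0.0172 and 0.00188), from vehicle levels of at most 0.5 CPM. Since it entered the test only through the AS CORT group, where it was high, these p-values are not free of that choice, and in a fit of all genes with no filter it stood at 1.96 and 2.17 (adjusted p = 0.00977 and 0.000722). The WT call of Itgad was lost without WT vehicle replicate 1 or 17. Exons of Itgad overlap those of other annotated genes on both strands, so some of its reads may not be its own. Tlr2 and Ly86, a partner of an LPS-sensing receptor, did not pass.

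Of the general macrophage genes, Mpeg1, which encodes the pore-forming protein perforin-2, and Adgre1, the F4/80 antigen, fell in both genotypes. Mpeg1 ranged from 22.6 to 26.9 CPM in WT vehicle and from 14.6 to 19 in WT CORT mice, and from 21.2 to 26.2 and 15.7 to 17.6 in AS mice, a log2 fall of 0.56 in WT and 0.51 in AS (adjusted p = 0.000428 and 0.000679). Adgre1 ranged from 5.21 to 6.86 CPM in WT vehicle and from 3.38 to 4.77 in WT CORT mice, and from 5.05 to 6.69 and 3.34 to 4.92 in AS mice, a fall of 0.66 and 0.61 (adjusted p = 0.00719 and 0.00944). Aif1, the actin-binding protein IBA1, and Laptm5, a lysosomal membrane protein, passed in WT, with falls of 0.63 and 0.36 (adjusted p = 0.00721 and 0.00988), and had log2 fold changes of -0.40 and -0.26 in AS (adjusted p = 0.0937 and 0.0651). The WT call of Laptm5 was lost in an edgeR fit of the compared groups alone (adjusted p = 0.0564). Cd68, a lysosomal glycoprotein, and Ctss did not pass, and neither did Cd163, the one Kupffer gene that could be tested in the hippocampus, with log2 fold changes of 0.63 in WT and 0.67 in AS. Cd163 had passed the filter only through the CORT groups, where it was high, and these 2 values are given as a description.

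**Figure D1:**
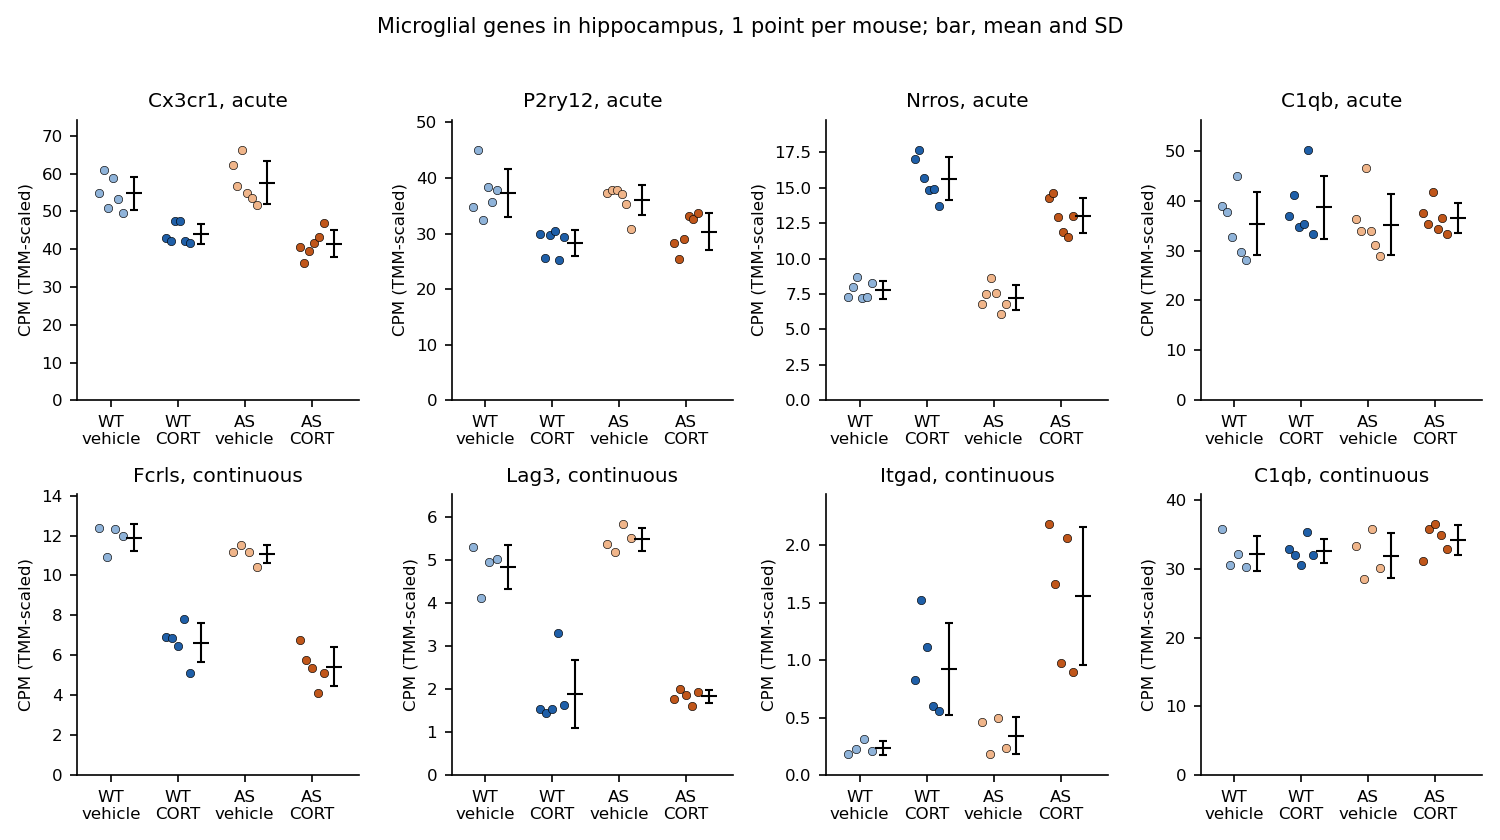
CPM of Cx3cr1, P2ry12, Nrros and C1qb in the acute hippocampus (upper row, 6 mice per group) and of Fcrls, Lag3, Itgad and C1qb in the continuous hippocampus (lower row, 4 or 5 mice per group), with 1 point per mouse and the mean and SD beside each group. Nrros rose to between 11.5 and 17.7 CPM in the acute CORT groups, Fcrls and Lag3 of the continuous CORT groups lay below every vehicle mouse of the same genotype, and C1qb overlapped between groups.

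Lists outside the 34 genes gave further calls. Of 20 other microglia genes tested, 2 were lower in WT and 4 in AS after continuous CORT, among them Unc93b1, which carries nucleic acid-sensing receptors, by 0.55 and 0.48 on the log2 scale, and Hpgds, a prostaglandin D synthase, by 0.89 and 0.73. Of 6 genes of a Kupffer list that could be tested, Mertk, a receptor for the uptake of dying cells, rose by 0.70 in WT and 0.86 in AS, and Slc40a1, the iron exporter ferroportin, fell by 0.73 and 0.56. Of 6 activated microglia genes tested, Spp1, which encodes osteopontin, rose by 0.92 and 1.32. Of 15 ligand and lineage factor genes tested, Id3 and Sall1 fell in WT, by 0.51 and 0.33, and 0 passed in AS by the edgeR test, with 5 at an unadjusted p under 0.05. Of the 6 inflammatory signalling genes tested, Nfkbia, an inhibitor of NF-kappaB, passed in AS, at 0.91.

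Genes of other cells moved with CORT as well. The astrocyte list (Gfap, Aqp4 and Slc1a2) summed to 2636 to 3101 CPM in WT vehicle and 2319 to 2485 in WT CORT mice. In AS mice its sums overlapped, at 2412 to 2975 CPM with vehicle and 2154 to 2663 with CORT. Of its 3 genes 2 were lower in each genotype, Aqp4 by 0.85 in WT and 0.85 in AS. The brain endothelium list (Cldn5, Slco1c1 and Ly6c1) summed to 117.8 to 136 CPM in WT vehicle and 88.62 to 111 in WT CORT mice, with 1 of 3 lower in WT and 2 of 3 in AS. Globin and other red cell genes summed to 40.9 to 58.83 CPM in WT vehicle, 75.29 to 185.8 in WT CORT, 53.14 to 118.1 in AS vehicle and 37.56 to 174 in AS CORT mice. Of these 5 genes 0 were called by the edgeR test, with 5 in WT and 0 in AS at an unadjusted p under 0.05. The neuron list had 0 of 3 called in either genotype, and 0 at an unadjusted p under 0.05 too. Lymphocyte and monocyte genes were near the limit of detection, with a list of 12 summing to 0.1378 to 0.6325 CPM in WT vehicle and 0.3708 to 1.771 in WT CORT mice and 5 to 10 of the 12 at 0 in a library. In 2 WT vehicle libraries, replicates 6 and 17, choroid plexus genes were high, and without them 10 members were called in WT, with Itgad (adjusted p = 0.155), Adgre1 (0.137) and Gpr34 (0.0764) no longer past the threshold. What part these cells had in the members' changes was not tested.

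In the acute hippocampus, 3 h after the injection, Nrros rose in both genotypes and Cx3cr1 and P2ry12 fell in WT mice. In AS mice Cx3cr1 and P2ry12 were called lower as well, but neither call held with the covariate for low-quality reads described further on. In WT mice 1 member was higher and 2 were lower of the 27 that passed the filter, which Itgad and the 6 Kupffer genes did not, against 1.06% and 0.417% of all genes tested. In AS mice 1 was higher and 8 were lower, against 8.25% and 9.62% of all genes. The median log2 fold change of the 27 was -0.0562 in WT and -0.184 in AS, against -0.00226 and 0.00643 for all genes.

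Nrros ranged from 7.23 to 8.7 CPM (median 7.68) in WT vehicle and from 13.7 to 17.7 (15.3) in WT CORT mice, and from 6.11 to 8.65 (7.14) in AS vehicle and 11.5 to 14.6 (13) in AS CORT mice. Every CORT mouse was above every vehicle mouse, and the rise was 2.0-fold in WT (SE 0.0838 on the log2 scale, adjusted p = 1.35e-08) and 1.8-fold, or 0.85 ± 0.0852 on the log2 scale, in AS (adjusted p = 1.71e-07). Cx3cr1 ranged from 49.6 to 60.9 CPM (median 54.1) in WT vehicle and from 41.6 to 47.5 (42.6) in WT CORT mice, and from 51.8 to 66.3 (55.8) in AS vehicle and 36.3 to 47 (41.1) in AS CORT mice. The groups did not overlap, with a fall of 0.32 ± 0.0681 in WT (adjusted p = 0.0106) and 0.48 ± 0.0682 in AS (adjusted p = 4.67e-05). P2ry12 ranged from 32.4 to 45.1 CPM (median 36.7) in WT vehicle and from 25.2 to 30.4 (29.5) in WT CORT mice, and from 30.8 to 37.8 (37.2) in AS vehicle and 25.4 to 33.7 (30.8) in AS CORT mice. It fell by 0.40 ± 0.0793 in WT (adjusted p = 0.0051), where the groups were apart, and by 0.25 ± 0.0792 in AS (adjusted p = 0.0326), where they overlapped and 22 of 31 settings kept the call.

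The other members called in AS mice were P2ry13, Tlr2, Cd68, Laptm5, Itgam and Siglech. P2ry13 fell by 0.66 on the log2 scale (adjusted p = 0.000374) and had a log2 fold change of -0.39 in WT (adjusted p = 0.0974). Tlr2 ranged from 0.392 to 1.51 CPM (median 1.25) in AS vehicle and from 0.196 to 0.62 (0.382) in AS CORT mice, a fall of 1.61 ± 0.29 (adjusted p = 0.000642) with some overlap. It passed the filter only through the vehicle groups, where it was high, so that this p is not free of that choice. In a fit of all genes with no filter Tlr2 was called again. Cd68 ranged from 7.64 to 11 CPM (median 10.3) in AS vehicle and from 5.58 to 7.65 (6.42) in AS CORT mice, a fall of 0.54 ± 0.117 (adjusted p = 0.00297). Laptm5, Itgam and Siglech fell by 0.29, 0.44 and 0.18 (adjusted p = 0.0234, 0.0364 and 0.0481). Of the 31 settings run for CORT in AS, Siglech passed in 13, Itgam in 22 and Laptm5 in 26. Lag3, Fcrls and Trem2, which fell after 5 days, had log2 fold changes of -0.06, -0.12 and 0.05 in WT and of -0.28, -0.04 and 0.04 in AS at 3 h, none past the threshold. The log2 fold changes of the C1q chains ranged from 0.12 to 0.23 in WT and from 0.05 to 0.07 in AS, and none passed. The other 12 members, Csf1r, Tmem119 and Tyrobp among them, did not pass either, with log2 fold changes from -0.30 to 0.17 in WT and from -0.30 to 0.18 in AS.

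The acute AS comparison had a technical feature. The number of read pairs set aside for low alignment quality was 2640 to 2785 in the 6 AS CORT libraries and 2735 and 2850 in 2 of the AS vehicle libraries, replicates 17 and 18, and at most 2237 in the other 16. With this division as a covariate, 1 member was called for CORT in AS, Nrros, at a log2 fold change of 1.01 (adjusted p = 1.04e-05), and Cx3cr1 stood at -0.35 (adjusted p = 0.0547). Of the other lost calls, P2ry13 stood at -0.55 (adjusted p = 0.107), Tlr2 at -1.10 (0.297), Cd68 at -0.26 (0.737), Itgam at -0.28 (0.838), P2ry12 at -0.12 (0.879) and Siglech at -0.04 (0.97), and Laptm5 reversed to 0.06 (0.946). Within the libraries above the division, Nrros alone was called again, at 1.01 (adjusted p = 0.00088). In AS mice Mbp, a myelin gene of oligodendrocytes, fell by 0.67 on the log2 scale (adjusted p = 0.0415), and the brain endothelium list summed to 81.68 to 105.1 CPM with vehicle and 68.73 to 81.54 with CORT, with 2 of 3 lower and 1 higher. Their part in the AS changes was not tested. Leaving out AS vehicle replicate 13, 14 or 15 lowered the number of members called in AS to 6, 5 and 5.

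Outside the 34 genes, Mertk rose at 3 h by 0.53 on the log2 scale in WT and 0.54 in AS, as it did after 5 days. Of 16 ligand and lineage factor genes tested, 1 was lower in WT, the transcription factor gene Zeb2, by 0.35, and 4 were lower in AS, among them Sall1, a factor of microglial identity, by 0.53 and Tgfb1 by 0.68. Of 20 further microglia genes tested, 0 passed in WT by the edgeR test, with 5 at an unadjusted p under 0.05, and in AS 5 were lower and 2 higher, with Cd33 at -0.63 and Abi3 at -0.60. In AS mice Spp1 was higher by 0.78 and Nfkbia by 0.65. These AS calls stand beside 9.62% of all genes lower and 8.25% higher. They come from the fit without the covariate for low-quality reads, which was read for the 34 genes only.

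**Figure D2:**
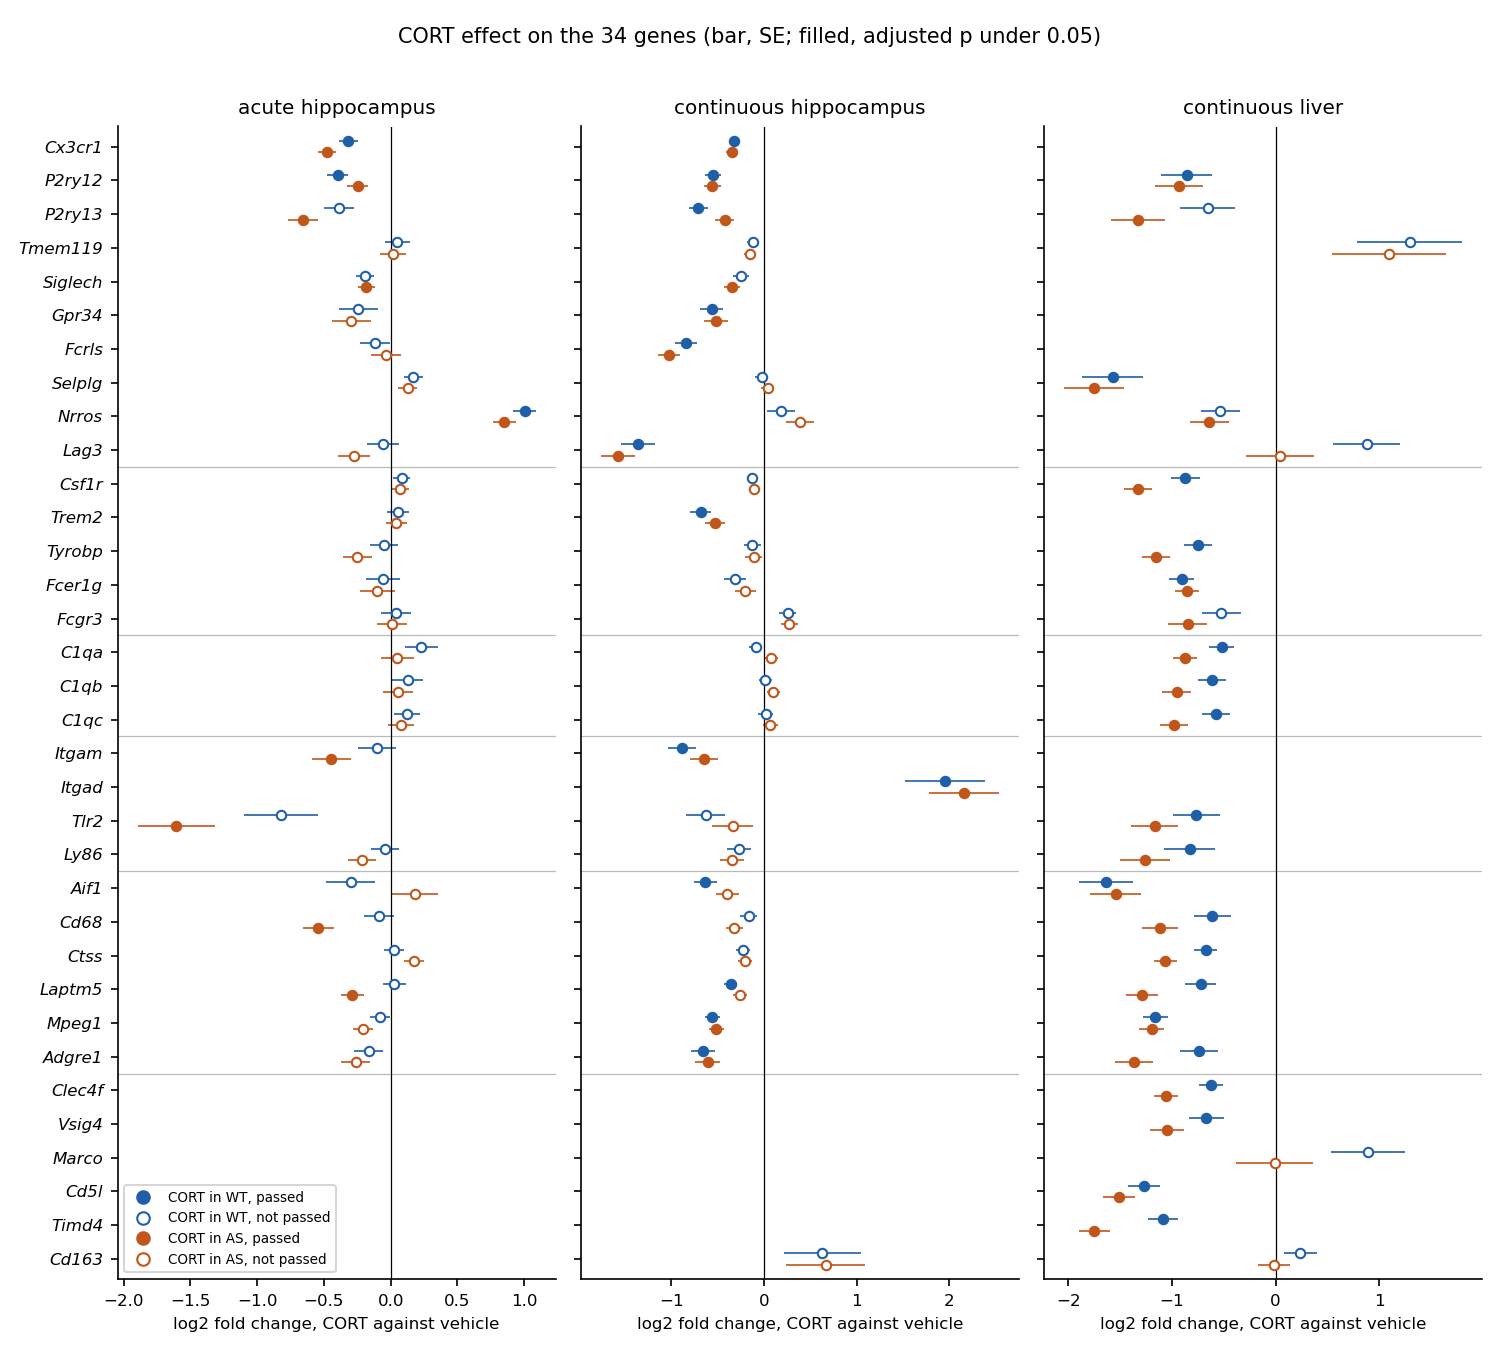
Log2 fold change of CORT against vehicle for the 34 genes, ordered by role group, in the acute hippocampus, the continuous hippocampus and the liver, with the SE as a bar and blue for WT and orange for AS mice. Filled points had an adjusted p under 0.05 and genes without a point did not pass the filter on low counts. In the liver the C1q chains lay below 0 in both genotypes, whereas in the hippocampal experiments they lay between -0.09 and 0.23.

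Few members were called between the genotypes in the hippocampus. Between AS and WT vehicle mice 0 of the 27 members passed in the acute experiment by the edgeR test and 0 by DESeq2, and 0.157% of all genes were called. At an unadjusted p under 0.05 there were 2 members, and 1394 of all 14611 genes tested. In CORT mice of that experiment 4 members passed, where 24.9% of all genes did. Selplg, Cd68 and Nrros had log2 differences of -0.31, -0.40 and -0.26 between AS and WT mice (adjusted p = 0.0035, 0.0149 and 0.0193) and Aif1 was higher in AS by 0.55 (adjusted p = 0.0283). With the division by low-quality reads as a covariate, 0 of these passed, with Selplg at -0.21, Nrros at -0.02, Cd68 at 0.01 and Aif1 at -0.03. Among CORT mice every AS library and no WT library lay above this division, so genotype and division cannot be told apart there. The covariate was set by the AS vehicle libraries alone, the only group with libraries on both sides. Aif1 was also lost with no filter and without AS CORT replicate 24 or WT CORT replicate 10 or 12, and Nrros without AS CORT replicate 23 or WT CORT replicate 11. The interaction of genotype and CORT was called for 0 of the 27 by edgeR and by DESeq2, with 4.49% of all genes called, and the number of members became 2 without AS vehicle replicate 17 or 18. At an unadjusted p under 0.05 the interaction gave 2 members, and 3443 of all 14611 genes tested. In the continuous hippocampus the edgeR test called 0 of the 29 between genotypes with vehicle, 0 with CORT and 0 for the interaction, and DESeq2 the same. At an unadjusted p under 0.05 there were 0, 5 and 0, and of all genes 0.0134%, 0.0401% and 0% were called. The 5 members were Cx3cr1, Tmem119 and Fcrls, with log2 differences of -0.14, -0.14 and -0.29 in AS against WT CORT mice, and C1qa and Itgad, with 0.16 and 0.75.

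In the liver, 5 days of CORT lowered genes of every role group. Of the 27 members that passed the filter, 20 were lower in WT and 23 in AS mice, and 0 were higher in either, where 9.9% and 15% of all genes tested were lower and 8.73% and 12.6% higher. DESeq2 called 22 lower and 1 higher in WT and 23 lower in AS, and at an unadjusted p under 0.05 there were 26 in WT and 23 in AS in either direction. Of all 12273 genes tested, 3777 in WT and 4753 in AS had such an unadjusted p. The median log2 fold change of the 27 was -0.674 in WT and -1.06 in AS, against -0.00473 and -0.00321 for all genes. Of the 7 members that did not pass the filter in liver, 4 were homeostatic microglia genes (Cx3cr1, Siglech, Gpr34 and Fcrls) and the others were Trem2, Itgam and Itgad. Selplg, Ly86 and Aif1 passed it only through vehicle groups, P2ry12 only through AS vehicle and Tmem119 only through CORT groups, so that each entered through the groups where it was high and its call is not free of that choice. In a fit of all genes with no filter, Selplg, Ly86 and Aif1 passed in both genotypes, with adjusted p of at most 0.0486, P2ry12 passed in AS (adjusted p = 0.0232) and not in WT (0.0686), and Tmem119 in neither.

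Genes by which Kupffer cells are told from other macrophages fell. Clec4f was at 40.5, 45.6, 46.5, 50 and 52.2 CPM in WT vehicle and at 24.9, 26.7, 28.6, 33.5 and 38.9 in WT CORT mice, and at 59.6, 60.5, 65.2, 66.8 and 78.6 in AS vehicle and 26.9, 29.1, 32.1, 34.1 and 37.1 in AS CORT mice. The groups did not overlap, with a fall of 0.62 ± 0.116 on the log2 scale in WT (adjusted p = 0.000674) and 1.05 ± 0.116 in AS (adjusted p = 1.41e-06). Cd5l was at 42.3, 52.3, 54.2, 59.2 and 67.2 CPM in WT vehicle and at 18.3, 21, 23.3, 24.5 and 26.9 in WT CORT mice, and at 57.5, 61.2, 62.9, 75 and 83.4 in AS vehicle and 17, 20.2, 23.9, 26.8 and 31.3 in AS CORT mice. Each CORT mouse was below each vehicle mouse, and Cd5l fell by 1.27 ± 0.155 in WT and 1.51 ± 0.155 in AS (adjusted p = 8.18e-06 and 6.17e-07). Timd4, a receptor for phosphatidylserine on dying cells, was at 3.88, 4.33, 4.39, 4.58 and 4.68 CPM in WT vehicle and at 1.7, 1.73, 2.09, 2.3 and 2.43 in WT CORT mice, and at 5.82, 5.87, 6.58, 6.93 and 7.13 in AS vehicle and 1.39, 1.71, 1.78, 2 and 2.7 in AS CORT mice. It had the lowest p of the members in AS, with a fall of 1.75 ± 0.146 (adjusted p = 4.56e-08), and fell by 1.09 ± 0.147 in WT (adjusted p = 2.65e-05). Vsig4, a complement receptor that captures bacteria, fell by 0.67 in WT and 1.05 in AS (adjusted p = 0.00722 and 8.37e-05). The scavenger receptor gene Cd163 was not called, with log2 fold changes of 0.24 in WT and -0.02 in AS, at 6.57 to 13.1 CPM. Marco, another scavenger receptor gene, passed the filter only through the WT CORT group, where it was high. Its log2 fold changes of 0.89 in WT and -0.01 in AS, at levels of 0.156 to 1.53 CPM and not past the threshold, are given as a description.

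**Figure D3:**
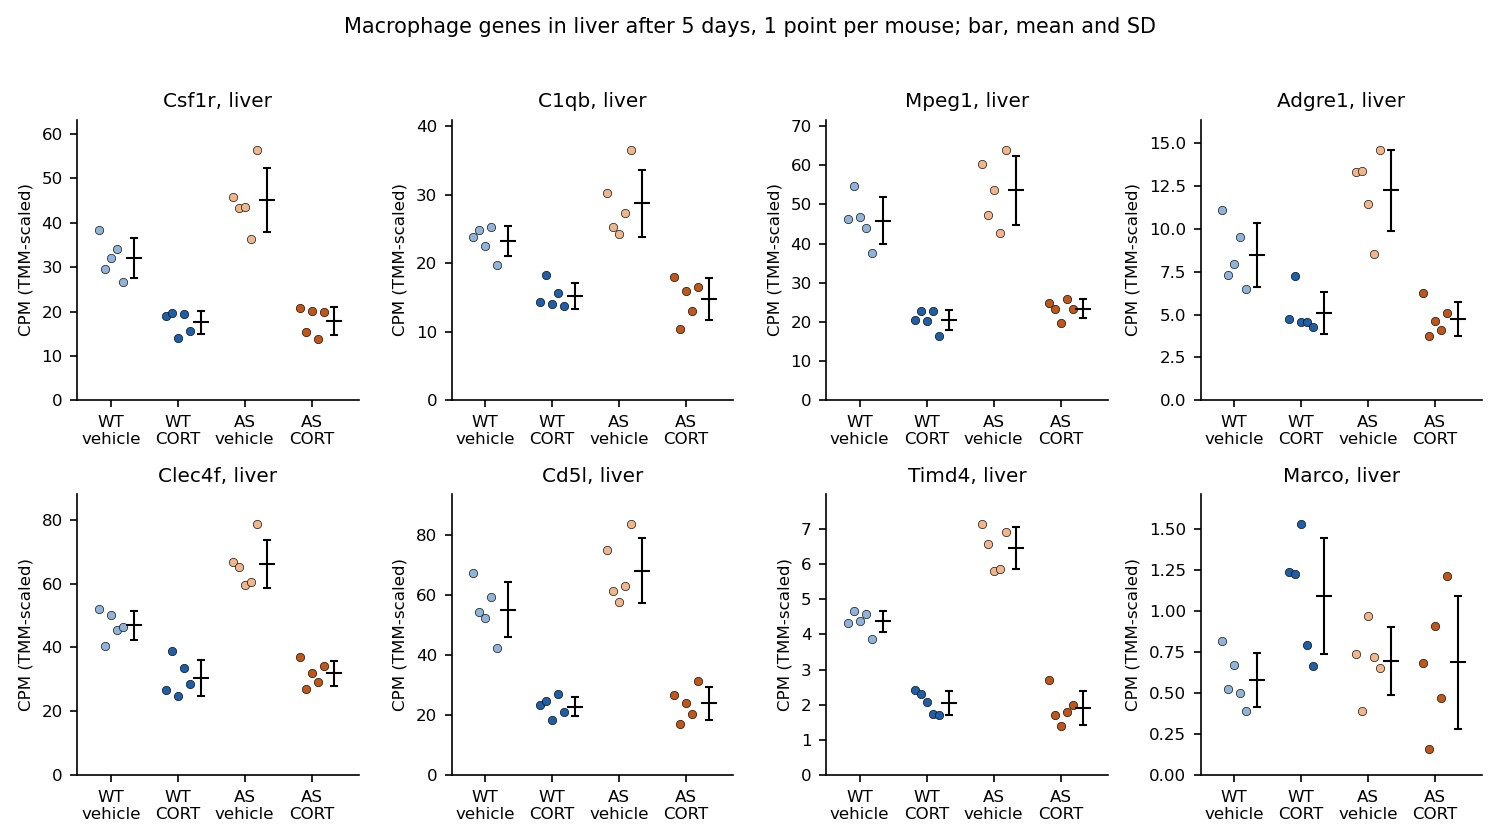
CPM of Csf1r, C1qb, Mpeg1, Adgre1, Clec4f, Cd5l, Timd4 and Marco in the liver after 5 days of vehicle or CORT, with 1 point per mouse, 5 mice per group, and the mean and SD beside each group. In Csf1r, C1qb, Mpeg1, Clec4f, Cd5l and Timd4 every CORT mouse lay below every vehicle mouse of its genotype, whereas Marco overlapped between groups.

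Csf1r and the immune receptors fell too. Csf1r was at 26.6, 29.5, 32, 34.1 and 38.5 CPM in WT vehicle and at 14.1, 15.6, 19, 19.5 and 19.7 in WT CORT mice, and at 36.3, 43.4, 43.6, 45.8 and 56.5 in AS vehicle and 13.7, 15.5, 19.9, 20.1 and 20.7 in AS CORT mice. It fell by 0.87 ± 0.137 in WT and 1.33 ± 0.137 in AS (adjusted p = 0.000141 and 6.77e-07) without overlap of the groups. Tyrobp fell by 0.75 and 1.16 and Fcer1g by 0.91 and 0.86, while Fcgr3 fell by 0.85 in AS (adjusted p = 0.00198) and stood at -0.52 in WT (adjusted p = 0.0593).

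All 3 C1q chains were lower. C1qb was at 19.8, 22.5, 23.9, 24.8 and 25.3 CPM in WT vehicle and at 13.8, 14, 14.3, 15.7 and 18.3 in WT CORT mice, and at 24.2, 25.2, 27.3, 30.2 and 36.5 in AS vehicle and 10.3, 13.1, 16, 16.5 and 18.1 in AS CORT mice. The groups were apart, and C1qb fell by 0.61 ± 0.135 in WT and 0.96 ± 0.136 in AS (adjusted p = 0.00309 and 2.69e-05). C1qa fell by 0.52 and 0.87 (adjusted p = 0.00345 and 1.57e-05) and C1qc by 0.58 and 0.98 (adjusted p = 0.00448 and 1.95e-05).

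Of the 6 general macrophage genes, Mpeg1, Adgre1, Laptm5, Ctss and Cd68 fell in each genotype, and so did Aif1, which had entered only through the vehicle groups. Mpeg1 was at 37.7, 44.1, 46.2, 46.7 and 54.6 CPM in WT vehicle and at 16.3, 20.2, 20.4, 22.7 and 22.8 in WT CORT mice, and at 42.8, 47.3, 53.8, 60.2 and 64 in AS vehicle and 19.7, 23.2, 23.3, 24.8 and 26 in AS CORT mice, a fall of 1.16 ± 0.12 in WT and 1.20 ± 0.119 in AS (adjusted p = 1.03e-06 and 4.4e-07). Aif1 fell by 1.64 and 1.54, Adgre1 by 0.74 and 1.36, Laptm5 by 0.72 and 1.29, Ctss by 0.67 and 1.06 and Cd68 by 0.61 and 1.11. Of the sensors, Tlr2 fell by 0.77 and 1.17 and Ly86 by 0.83 and 1.26. In WT the calls of Tlr2, Ly86 and Cd68 were less firm. Tlr2 was lost without WT CORT replicate 5 or 15 or WT vehicle replicate 1 (adjusted p up to 0.0611). Ly86 was lost without WT CORT replicate 5 or 20 or WT vehicle replicate 1, and Cd68 without WT CORT replicate 5, 12 or 20, both also in a fit of the compared groups alone (adjusted p up to 0.0742 and 0.0563). Among the homeostatic microglia genes measurable in liver, Selplg fell by 1.57 and 1.75 and P2ry12 by 0.86 and 0.93, while P2ry13 and Nrros passed in AS, with falls of 1.32 and 0.64 (adjusted p = 0.000741 and 0.0149), and not in WT (adjusted p = 0.0901 and 0.0558). The WT call of P2ry12 was lost with no filter and without WT CORT replicate 15 (edgeR adjusted p up to 0.069). Lag3 and Tmem119 had log2 fold changes of 0.88 and 1.29 in WT and of 0.04 and 1.10 in AS, none past the threshold in edgeR (adjusted p = 0.0633 for Lag3 in WT). Lag3 in WT did pass by DESeq2 (adjusted p = 0.0359) and in a fit of the compared groups alone (adjusted p = 0.0276), and its CORT mice, at 2.53 to 3.31 CPM, lay above its vehicle mice, at 0.955 to 2.42.

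Lists outside the 34 genes were also read in the liver. Of 17 further microglia genes tested, 12 were lower in WT and 14 in AS and 0 higher, among them Pld4, a lysosomal nuclease, by 1.25 and 1.41, Ptprc, the leukocyte antigen CD45, by 1.44 and 1.55, and Ikzf1, a transcription factor of blood cells, by 1.76 and 1.73. Of 12 further Kupffer genes, 5 were lower in WT and 8 in AS, with Folr2, a folate receptor, at -1.40 and -1.78 and Lyz2, lysozyme, at -0.71 and -1.24, and 1 was higher in each, Slc40a1, by 0.59 and 0.46. Of 14 ligand and lineage factor genes, 7 were lower and 2 higher in WT and 5 lower and 3 higher in AS. Csf1 fell by 0.80 and 0.84, Tgfb1 by 0.80 and 0.98, Zeb2 by 0.87 and 1.24 and Spi1, which encodes PU.1, by 0.90 and 1.29, whereas Il34 rose by 0.54 and 0.73 and Sall1 by 0.68 and 1.14.

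Other values moved with CORT in the liver beside these genes. The 12 genes of other leukocytes summed to 6.256 to 10.16 CPM in WT vehicle, 3.466 to 5.17 in WT CORT, 8.872 to 13.14 in AS vehicle and 5.101 to 5.551 in AS CORT mice, with 0 to 4 of the 12 at 0 in a library, and the 3 of them that could be tested, Cd79a, Ccr2 and Plac8, were lower in both genotypes. Globin and other red cell genes summed to 342.6 to 573.5 CPM in WT vehicle, 228.6 to 327.9 in WT CORT, 243.1 to 474.6 in AS vehicle and 124.4 to 192 in AS CORT mice, with 2 of 5 lower in WT and 4 of 5 in AS. The share of read pairs that were not aligned was 5.392% to 8.925% in WT vehicle, 3.198% to 4.769% in WT CORT, 4.523% to 6.685% in AS vehicle and 1.49% to 3.227% in AS CORT libraries. Sinusoidal endothelium genes (Stab2, Clec4g and Oit3) had 0 of 3 called in WT and 2 of 3 lower in AS, and hepatocyte genes 0 of 3 in WT and 1 of 3 higher in AS. Stellate cell genes (Lrat, Reln and Hand2) summed to 67.13 to 87.32 CPM in WT vehicle, 59.29 to 83.69 in WT CORT, 60.7 to 101.3 in AS vehicle and 51.89 to 65.92 in AS CORT mice, with 0 of 3 called in WT, and with Reln and Lrat lower and Hand2 higher in AS. Their part in the members' falls was not tested.

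Between vehicle-treated AS and WT mice the edgeR test called 0 of the 27 members in the liver. At an unadjusted p under 0.05 there were 14, all higher in AS, where 1270 of all 12273 genes tested had such a p in either direction. Of the 27 log2 differences 26 were above 0, with a median of 0.324 against 0.00779 for all genes. At the adjusted threshold 0.0163% of all genes were called. DESeq2 called 3 of the 27, Clec4f, Tyrobp and Timd4. In Clec4f the AS vehicle mice, at 59.6 to 78.6 CPM, lay above the WT vehicle mice, at 40.5 to 52.2, and the log2 difference was 0.49 ± 0.115 (edgeR adjusted p = 0.179). In Timd4 they also lay apart, at 5.82 to 7.13 against 3.88 to 4.68 CPM, with a difference of 0.56 ± 0.137 (edgeR adjusted p = 0.179), and Csf1r differed by 0.49 ± 0.134 (edgeR adjusted p = 0.224). With CORT, 0 of the 27 were called between genotypes by edgeR and by DESeq2, with 1 at an unadjusted p under 0.05, where 0.277% of all genes were called. The interaction was called for 0 of the 27 by both tools and 0% of all genes. At an unadjusted p under 0.05 the interaction gave 9 members, and 995 of all 12273 genes tested. Of the 27 interaction terms 25 were below 0, with a median of -0.389 against -0.00567 for all genes. The larger falls of AS mice listed above are thus not shown to differ from those of WT mice.

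The levels of the 34 genes in the 2 tissues of the continuous cohort were then set side by side. In a joint fit of the 38 libraries, 14 members were higher in liver, 19 were lower and 1, C1qa, did not pass, where 44.6% of all genes were higher and 50.5% lower, and the median log2 difference of all genes was -0.152. Of the 10 homeostatic microglia genes, 9 were lower in liver and Lag3 was higher, by 0.31. Both tissues came from the same mice, and with the library number as a replicate block 32 members differed, Lag3 no longer among them at 0.19 (adjusted p = 0.214). Lag3 was called in 31 of the 45 settings run, and lost its call also with DESeq2 (0.22, adjusted p = 0.117), DESeq2 size factors (0.21, adjusted p = 0.131), no filter (0.24, adjusted p = 0.103). Leaving out any 1 of 9 libraries ended it too, namely WT CORT replicates 12, 15 and 20 and WT vehicle replicate 17 of the hippocampus, and AS CORT replicates 16 and 18, AS vehicle replicate 9 and WT vehicle replicates 13 and 17 of the liver. All 6 Kupffer genes were higher in liver.

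Cx3cr1 ranged from 31.9 to 52.1 CPM (median 40.1) in the 18 hippocampal libraries and from 0.139 to 1.03 (0.382) in the 20 liver libraries on the joint scale, and the hippocampal level was 92.8-fold higher (95% counting interval 78.1 to 111). Fcrls had 3 counts in all liver libraries together and was 602-fold higher in the hippocampus (206 to 2920), and Gpr34 had 7 counts and was 272-fold higher (132 to 676). Itgad also had 3 counts in liver and was 58.2-fold higher in the hippocampus (19.7 to 284). Conversely, Vsig4, Marco and Cd5l had 0 counts in all 18 hippocampal libraries, where 3 counts per library would be at most 0.113 CPM, and were at least 150-fold, 8.37-fold and 438-fold higher in liver. Clec4f had 1 hippocampal count in all, a ratio of 31900 (5730 to 1260000), and Timd4 had 3, a ratio of 900 (308 to 4370). Cd163 was detected in both, from 0.237 to 1.35 CPM in hippocampus and from 8.8 to 17.4 in liver, a 19.2-fold difference (17.3 to 21.3). These folds move with the scaling by more than the counting intervals show, since with library size alone the log2 difference of Cx3cr1 was -7.47 in place of -6.58.

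Of the genes outside the homeostatic and Kupffer groups, Trem2 and Itgam stood far apart between the tissues, 21.1-fold (17.1 to 26.2) and 9.42-fold (7.29 to 12.4) higher in the hippocampus, and the C1q chains were close when averaged over treatments. C1qa ranged from 22 to 28.4 CPM in hippocampus and from 14.3 to 41.8 in liver, with a log2 difference of 0.05 ± 0.0495 (adjusted p = 0.377), and C1qb and C1qc were higher in liver by 0.17 and 0.25. These averages of vehicle and CORT groups hold for neither treatment alone. The CORT effect in liver minus that in hippocampus was larger in size, at -0.67 for C1qa, -0.81 for C1qb and -0.79 for C1qc. The call of C1qb was lost with DESeq2 (0.08, adjusted p = 0.18), DESeq2 size factors (0.08, adjusted p = 0.183) and no filter (0.11, adjusted p = 0.0931). Mpeg1, Adgre1 and Tlr2 were higher in liver, by 1.58, 1.45 and 1.39 on the log2 scale, and Csf1r, Ctss, Laptm5 and Ly86 lower, by 0.99, 1.04, 1.06 and 1.5. The direction of the smaller differences depended on scaling, since TMM factors were 1.345 to 1.424 in hippocampus and 0.6796 to 0.7902 in liver. With library size alone, Cd68, Lag3, Fcer1g and the 3 C1q chains were lower in liver instead, from -0.20 for Fcer1g to -0.86 for C1qa.

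**Figure D4:**
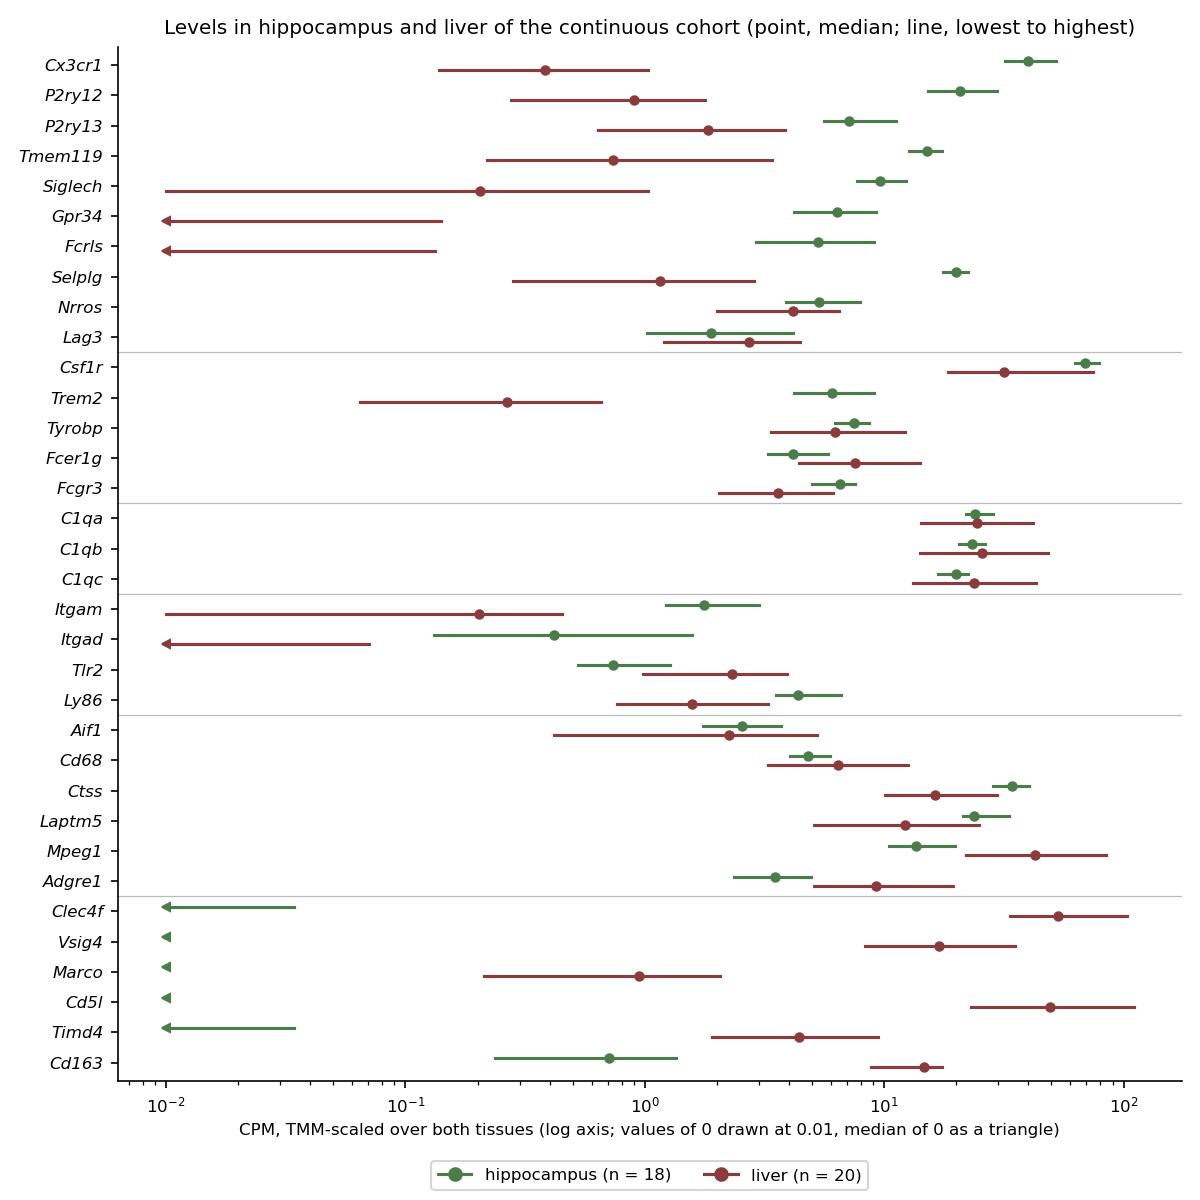
Levels of the 34 genes in the hippocampus (green, 18 libraries) and liver (red, 20 libraries) of the continuous cohort, in CPM scaled by TMM over both tissues on a log axis, with the median as a point and the lowest to highest library as a line. Values of 0 are drawn at 0.01 with a triangle for a median of 0. Clec4f, Vsig4, Cd5l and Timd4 separate the liver from the hippocampus and Cx3cr1, Gpr34 and Fcrls separate the hippocampus from the liver, while the C1q chains overlap.

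The CORT effect itself was compared between the tissues for the 22 members that passed the filter in each. Averaged over the genotypes, 15 had a lower log2 effect in liver than in hippocampus, 2 a higher one and 5 did not pass, where 10.3% of the 11017 genes that could be compared had a lower and 13.7% a higher effect in liver. For C1qb the difference was -0.81, for C1qc -0.79 and for C1qa -0.67, and for Csf1r and Tyrobp -0.95 and -0.81. Lag3 had the opposite sign, at 1.96 (adjusted p = 1.9e-06). Selplg (-1.65), Aif1 (-1.05), Ly86 (-0.71) and Tmem119 (1.36) were also among the 17, but they had entered through the liver groups where they were high, vehicle for the first 3 and CORT for Tmem119, so that their values are given as a description. With no filter they stood at -1.64, -1.04, -0.70 and 1.37. For P2ry12, P2ry13, Tlr2, Adgre1 and Cd163, the last of which had entered through the hippocampal CORT groups, a difference was not shown, with Adgre1 at -0.39 (adjusted p = 0.0967). Mpeg1, which fell in both tissues, fell more in liver, by 0.62 on the log2 scale. The 2 tissues came from the same mice, but no label says which hippocampal and liver libraries share one. Libraries numbered 1 to 20 belong to the same group in each tissue, and with that number as a replicate block 17 members again differed in CORT effect.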

How the data were processed

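Hippocampus and liver RNA was sequenced by the authors as stranded mRNA libraries (100 base paired ends), aligned to mm10 with STAR and counted with HTSeq, and the deposited values are raw counts of read pairs per gene, with no normalization. The annotation release and the strand setting of the counting are not given in the sources used here, so overlapping and antisense genes may share reads. Rows that name no gene held 12.95% to 15.9% (acute hippocampus), 11.74% to 12.59% (continuous hippocampus) and 15.36% to 23.29% (liver) of all counted pairs and stayed out of library sizes and tests. Symbols came from GENCODE vM21. Genes with more than 20 normalized counts in at least 3 libraries of a group were kept. Counts were fitted with edgeR 4.0.16 (quasi-likelihood F test, TMM, 1 coefficient per group, Benjamini-Hochberg adjustment, threshold 0.05), separately for the acute hippocampus, the continuous hippocampus and the liver, and jointly for both tissues. The tissue difference in CORT effect was read only for genes that passed the filter in each tissue, with adjustment over 15937 genes, a choice made after seeing the data. The members and lists were chosen with earlier results of these data known. All members were to be described, and of each other list up to 3 called genes with the lowest p. Beyond these, Spi1, Il34, Sall1, Slc40a1, Ptprc and Ikzf1 in liver, Hpgds in AS hippocampus, the hippocampal genes at an unadjusted p under 0.05 and Stab1 and Lyve1 were named after their values were seen. Alternatives were DESeq2, other scalings and filters, covariates and leaving out each library. The code was tested on simulated counts. Labels give separate mice as replicates, and replicate pairs differed beyond counting noise. The summed level of the oligodendrocyte list is not reported here.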

Additional observations from a re-analysis of the deposited data

Results flagged for a closer look

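Of 332 groups of 4 to 6 libraries checked, 13 (3.92%) held a library whose gap to its nearest neighbour was large for the group's range by Dixon's criterion, and chance flags about 1 group in 20. In the acute WT CORT group these were Fcrls at 10.88 CPM in replicate 7, and C1qc at 45.58, Fcer1g at 10.13 and Trem2 at 10.9 CPM in replicate 8. In the acute AS vehicle group they were Selplg at 48.44 CPM in replicate 15, and P2ry12 at 30.75 and Tlr2 at 0.3918 CPM in replicate 18, the lowest of their group. In the continuous hippocampus they were Tyrobp at 11.73 CPM in WT vehicle replicate 4, and C1qa at 34.01 and Lag3 at 3.29 CPM in WT CORT replicate 3. In the liver they were Tmem119 at 1.229 CPM in WT vehicle replicate 6, Adgre1 at 7.268 CPM in WT CORT replicate 15 and Fcer1g at 10.64 CPM in AS vehicle replicate 9.

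In 17 members the CORT effect differed between liver and hippocampus by the edgeR quasi-likelihood test of the difference itself, given here as the log2 effect in liver minus that in hippocampus. It was above 0 for Lag3 (1.96) and Tmem119 (1.36). Below 0 were the homeostatic genes Selplg (-1.65) and Nrros (-0.84), the receptors and adaptors Csf1r (-0.95), Fcgr3 (-0.92), Tyrobp (-0.81) and Fcer1g (-0.60), and the C1q chains C1qb (-0.81), C1qc (-0.79) and C1qa (-0.67). The sensor gene Ly86 stood at -0.71, and the general macrophage genes Aif1 at -1.05, Laptm5 at -0.67, Ctss at -0.63, Mpeg1 at -0.62 and Cd68 at -0.59. Of these, Selplg, Ly86 and Aif1 passed the filter on low counts in liver only through vehicle groups and Tmem119 only through CORT groups, so that they entered through the groups where they were high.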

How the results depend on the processing

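Over the alternatives other than leaving out a library, 2786 values kept direction and side of the threshold, 19 passed it, 42 fell short of it and 10 reversed. With the division by low-quality reads as a covariate, members called in the acute hippocampus went from 9 to 1 for CORT in AS and from 4 to 0 for AS against WT with CORT. For AS against WT with CORT, genotype coincided with this division, and they cannot be told apart. With the libraries on one side of it, chosen after seeing the data, CORT in AS gave 1. In these fits, which use fewer libraries or 1 more term, Laptm5 reversed to 0.06434 and 0.06271 for CORT in AS, and with the covariate Cd68 went to 0.005242 and Aif1 to -0.02917 for AS against WT with CORT. DESeq2 called 3 members in the liver for AS against WT with vehicle, where edgeR called 0, and the cause was not tested. With library size alone, liver against hippocampus reversed for C1qa (-0.86), C1qb (-0.74), C1qc (-0.66), Lag3 (-0.60), Cd68 (-0.56) and Fcer1g (-0.20). Leaving out 1 library gave 3 to 4 members for CORT in WT, 5 to 11 for CORT in AS, 3 to 6 for AS against WT with CORT and 0 to 2 for the interaction in the acute hippocampus. It gave 11 to 14 and 8 to 13 for CORT in WT and AS in the continuous hippocampus and 17 to 24 and 22 to 23 in the liver. Between tissues it gave 32 to 33 for the level and 17 to 19 for the CORT effect. Both tissues came from the same mice and the groups of their library numbers match, but no label ties a number to a mouse. The correlation of the deviations of same-numbered libraries was -0.0812 to 0.0764 over 18 pairs, 0 over 0.1, and 4 of 18 correlated best with their own number. With the replicate block 32 members differed in level (Lag3 no longer, adjusted p = 0.214) and 17 in CORT effect. With all 20 hippocampal libraries 8 members were called in AS. Depth limits members with few counts, among them Itgad, Marco, Tlr2 and Cd163.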

Other observations

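Genes of border-associated macrophages, which live in the meninges and around vessels, gave 0 calls of 3 tested after continuous CORT in the hippocampus of either genotype by the edgeR test, with 1 at an unadjusted p under 0.05 in each, and DESeq2 was not read for this list. Their 7 genes summed to 13.6 to 19.38 CPM in WT vehicle and 17.1 to 22.04 in WT CORT mice, and Stab1, a scavenger receptor, had log2 fold changes of 0.28 in WT and 0.37 in AS (adjusted p = 0.218 and 0.0877). In the liver Mrc1, the mannose receptor, fell with CORT by 0.49 in WT and 0.80 in AS (adjusted p = 0.0481 and 0.00136), and Stab1 by 0.58 in AS (adjusted p = 0.00541). Lyve1, a hyaluronan receptor, did not pass, at 1.49 in WT and 0.74 in AS.

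In the 2 continuous hippocampal libraries left out as technical outliers, AS vehicle replicate 9 and WT vehicle replicate 13, unscaled levels were 59.5 and 88.7 CPM for Cx3cr1, 7.45 and 9.64 for Fcrls, 4.38 and 7.32 for Lag3, 11.2 and 12.2 for Trem2 and 35.8 and 41.7 for C1qb. Tlr2 was at 2.7 and 5.67 CPM, Cd68 at 6.29 and 14.4, Mpeg1 at 35.3 and 43.7 and Ctss at 71.8 and 71.1. The highest TMM-scaled levels of these genes in the 18 libraries kept were 1.77, 8.29, 26.9 and 54.8 CPM.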
